A study of Homo sapiens with 12 samples.

Results

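The 10 genes described here, SYCP1, SYCP3, HORMAD1, SMC1B, STAG3, DMC1, HSF2BP, TEX11, TEX14 and TEX15, act on chromosome axes, in recombination or in the germ cells that carry them out. They were measured on 12 expression arrays in 2 established lines derived from classical Hodgkin lymphoma, L428 and L1236. Every probe set whose annotated symbol is one of these names was taken, which gave 16 of the 54675 probe sets of the table, and every gene had at least 1. The groups, of 3 arrays each, were L428 given 5-Aza-dC, untreated L428, L1236 given 5-Aza-dC and untreated L1236. 5-Aza-dC (decitabine) is a deoxycytidine analogue that traps DNA methyltransferases. It was applied at 1 µM for 24 h and removed, and RNA was taken after another 72 h without drug. The labels name drug exposure as the difference between treated and untreated groups. They do not give the time in culture of the untreated cells, and no vehicle is described for them. The protocol speaks of a triplicate experiment and does not say whether the 3 were separate cultures, so p-values measure the spread between these arrays, which may be technical.

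In meiosis, the homologous copies of each chromosome are folded into loops along a protein axis, paired, and joined by recombination. The axis is built from cohesin with meiosis-specific subunits (SMC1B, STAG3), from SYCP3, and from the HORMA-domain protein HORMAD1, and SYCP1 forms the filaments that zip the axes together into the synaptonemal complex. DMC1 is the meiotic recombinase, and HSF2BP and TEX15 are known in mice as factors needed to load recombinases on broken DNA. TEX11 is an X-linked protein of meiotic recombination sites, and TEX14 is a component of the bridges that connect dividing germ cells. In somatic tissue several of these genes are kept silent by promoter methylation, and some are counted among the cancer/testis genes, which are normally expressed in the germ line and turn up in tumours.

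Array medians were 3.01 to 3.09 on the log2 scale, correlations between arrays of the same group were 0.982 to 0.997, and those between the lines 0.911 to 0.937. The source name of untreated L1236 array 1 describes treated L428 cells, while its description says untreated L1236. That array correlated with the other untreated L1236 arrays at 0.993 to 0.994 and with treated L428 arrays at 0.915 to 0.928, and the counts of called member probe sets below were the same without it. Arrays numbered 1 of the treated groups stood furthest from their group mean, with a deviation SD of 0.385 in L428 and 0.350 in L1236, against 0.162 to 0.313 on the other arrays. By group mean, all 9 Hodgkin Reed-Sternberg markers were above the array median in L428 and 8 of 9 in L1236, where TRAF1 was not. CCL22 was close to it in untreated L428, at 3.10. In L1236, 3 of the 9 rose, CCL22 by 6.455 (adjusted p = 0.00254), CCL17 by 3.01 (4.75e-05) and CD40 by 1.35 (0.0299). CD40 was not called without any 1 of 5 arrays. Of 6 B cell markers, 0 were called in either line after treatment. PAX5 and POU2AF1 were higher in untreated L1236 than in untreated L428, by 6.46 and 11.02. Of 5 T cell markers, CD3D was above the array median in every group and CD2 in treated L428, and CD3E, CD3G and CD5 were below it in all groups. CD3D rose by 2.43 in L1236 (adjusted p = 0.00953) and CD2 by 1.71 in L428 (adjusted p = 0.0109), and the mean of the 5 was 2.81 to 3.08 in treated L428 arrays, against 2.47 to 2.82 in untreated L428 arrays, and 3.07 to 3.18 in treated L1236 arrays, against 2.40 to 2.55 in untreated L1236 arrays. Of 5 myeloid markers, CSF1R and ITGAM were above the median in every group, with ITGAM 1.63 higher in treated L1236 (adjusted p = 5.53e-04), and CD14, LYZ and FCGR1A were below it in all groups. The mean of 6 stromal, endothelial and epithelial markers was 6.28 to 6.61 in treated L1236 arrays, against 4.75 to 4.91 in untreated L1236 arrays, where 4 of the 6 rose (EPCAM, COL1A1, KRT19 and VWF) and EPCAM and KRT19 passed the median in treated L1236 only. VWF was not called without any 1 of the 3 untreated L1236 arrays. The part of those markers in the results below was not tested. In bulk RNA, a change in how many cells express a gene and a change in RNA per cell cannot be told apart.

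After 5-Aza-dC, HORMAD1, TEX11, SYCP3 and STAG3 were higher in both lines, and no member was called lower in either line. In L428, 6 of 16 probe sets rose and 0 fell (limma with Benjamini-Hochberg adjustment over all probe sets, called at an adjusted p under 0.05), where 1.82% of all probe sets rose and 3.02% were called either way. In L1236, 7 of 16 rose and 0 fell, where 4.58% of all probe sets rose and 9.02% were called either way. No member fell at an unadjusted p under 0.05 either (0 probe sets in each line). Counted by gene, with a gene represented by its probe set of highest mean, 4 of 10 rose in L428 (2.84% of all genes) and 5 of 10 in L1236 (7.41% of all genes). The same 4 genes, with 6 probe sets, rose in both lines, against 0.648% of all probe sets and 1.06% of all genes. TEX11 enters the probe set counts more than once. The members were chosen with earlier results of these data known, so setting them beside these shares is a description and not a test. With the array number as a block, 4 probe sets of 2 genes, HORMAD1 and TEX11, were called in L428 and in both lines. The L428 numbers were taken as pairs by a rule given below, although L428 arrays 2 and 3 correlated as well across numbers (r = 0.168 and 0.161). The median change of the 10 genes was 0.95 in L428 and 1.59 in L1236, against −0.02 and −0.03 over all genes.

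**Figure D1:**
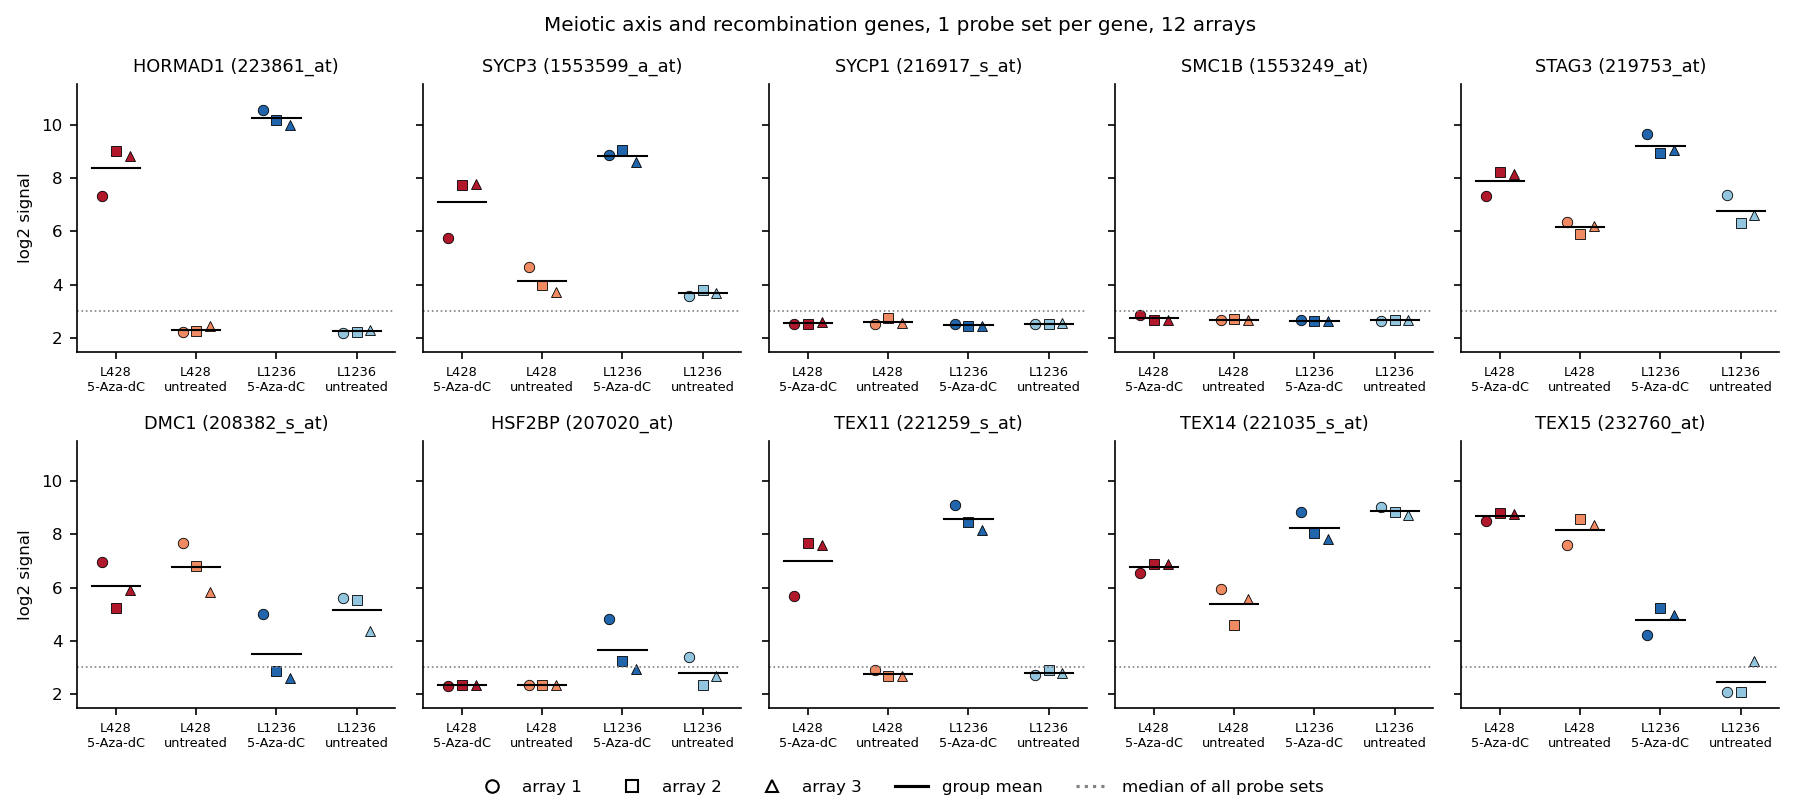
Log2 signal of the 10 genes (vertical axis) on each of the 12 arrays, 1 probe set per gene, with the groups along the horizontal axis, a bar at each group mean and a dotted line at the median of all probe sets. HORMAD1 and TEX11 lie below the dotted line on all 6 untreated arrays and between 5.69 and 10.56 on all treated ones, STAG3 is well above the line in every group, and SYCP1 and SMC1B stay below it on all 12 arrays.

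HORMAD1, the axis protein that marks chromosomes that have not yet paired, gave the largest change of the 16 probe sets in both lines. Its log2 signal (probe set 223861_at) was 7.33, 9.02 and 8.83 in L428 cells given 5-Aza-dC, against 2.23, 2.27 and 2.44 in untreated L428. In L1236 it was 10.56, 10.16 and 9.99 after 5-Aza-dC, against 2.20, 2.24 and 2.32 without treatment. Both treated groups lay far above both untreated ones, all untreated arrays were under the array median, and the 2 untreated lines overlapped. The change was 6.08 ± 0.38 in L428 (SE, adjusted p = 1.15e-04) and 7.98 ± 0.38 in L1236 (adjusted p = 5.58e-06). These calls were kept in each of the 22 alternative settings. Because the untreated values lie at the bottom of the scale, the size of the fold depends on where the processing placed that floor.

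TEX11 behaved alike on its 3 probe sets. On 221259_s_at the log2 signal was 5.69, 7.68 and 7.60 in treated L428, against 2.91, 2.70 and 2.69 in untreated L428, a change of 4.22 ± 0.48 (adjusted p = 0.0026). In L1236 the same probe set read 9.10, 8.45 and 8.14 after treatment, against 2.74, 2.91 and 2.79 in untreated cells, a change of 5.75 ± 0.48 (adjusted p = 1.99e-04). Treated arrays were above all untreated arrays in both lines, and array 1 was the lowest of the treated L428 arrays and the highest of the treated L1236 arrays. The other 2 probe sets gave changes of 5.60 ± 0.43 (233514_x_at) and 4.27 ± 0.43 (234296_s_at) in L428, and of 6.87 ± 0.43 and 5.95 ± 0.43 in L1236. Over the 12 arrays the 3 probe sets correlated at r = 0.995 to 0.999, as a description of probe sets that share a transcript.

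SYCP3, the main component of the axis, was already above the array median in untreated cells on probe set 1553599_a_at. Its log2 signal was 5.75, 7.73 and 7.78 in treated L428, against 4.68, 4.0 and 3.74 in untreated L428. In L1236 it was 8.86, 9.05 and 8.58 after 5-Aza-dC, against 3.57, 3.82 and 3.70 in untreated cells. Treated and untreated arrays did not overlap in either line, and treated L428 array 1 lay closest to the untreated range. SYCP3 rose by 5.13 ± 0.50 in L1236 (adjusted p = 4.85e-04) and by 2.95 ± 0.50 in L428 (adjusted p = 0.0174). The L428 call was lost with the array number as a block (adjusted p = 0.0991) and without any 1 of untreated L428 arrays 2 and 3 and treated L428 arrays 2 and 3 (adjusted p = 0.0601 to 0.0714). The second SYCP3 probe set, 241861_at, stayed between 2.75 and 2.94 on all 12 arrays, below the array median, with changes of −0.05 in L428 and −0.01 in L1236, so the rise rests on 1 of the 2 SYCP3 probe sets.

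STAG3, the cohesin subunit that holds sister chromatids in meiosis, differed from the other 3 in that untreated cells already gave a clear signal. On 219753_at the log2 signal was 7.34, 8.21 and 8.17 in treated L428, against 6.36, 5.90 and 6.22 in untreated L428. In L1236 it was 9.63, 8.92 and 9.06 after 5-Aza-dC, against 7.36, 6.32 and 6.62 in untreated cells. The groups were separated in both lines, with no untreated array under 5.90. The change was 1.75 ± 0.33 in L428 (adjusted p = 0.0289), a 3.36-fold rise, and 2.44 ± 0.33 in L1236 (adjusted p = 0.00279), a 5.42-fold rise. The L428 call was lost with the array number as a block (adjusted p = 0.0544), without untreated L428 array 2 or 3 (0.0982 and 0.0743), without treated L428 array 2 or 3 (0.115 and 0.123) and without untreated L1236 array 3 (0.0536), while the change itself stayed between 1.59 and 2.13.

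**Figure D2:**
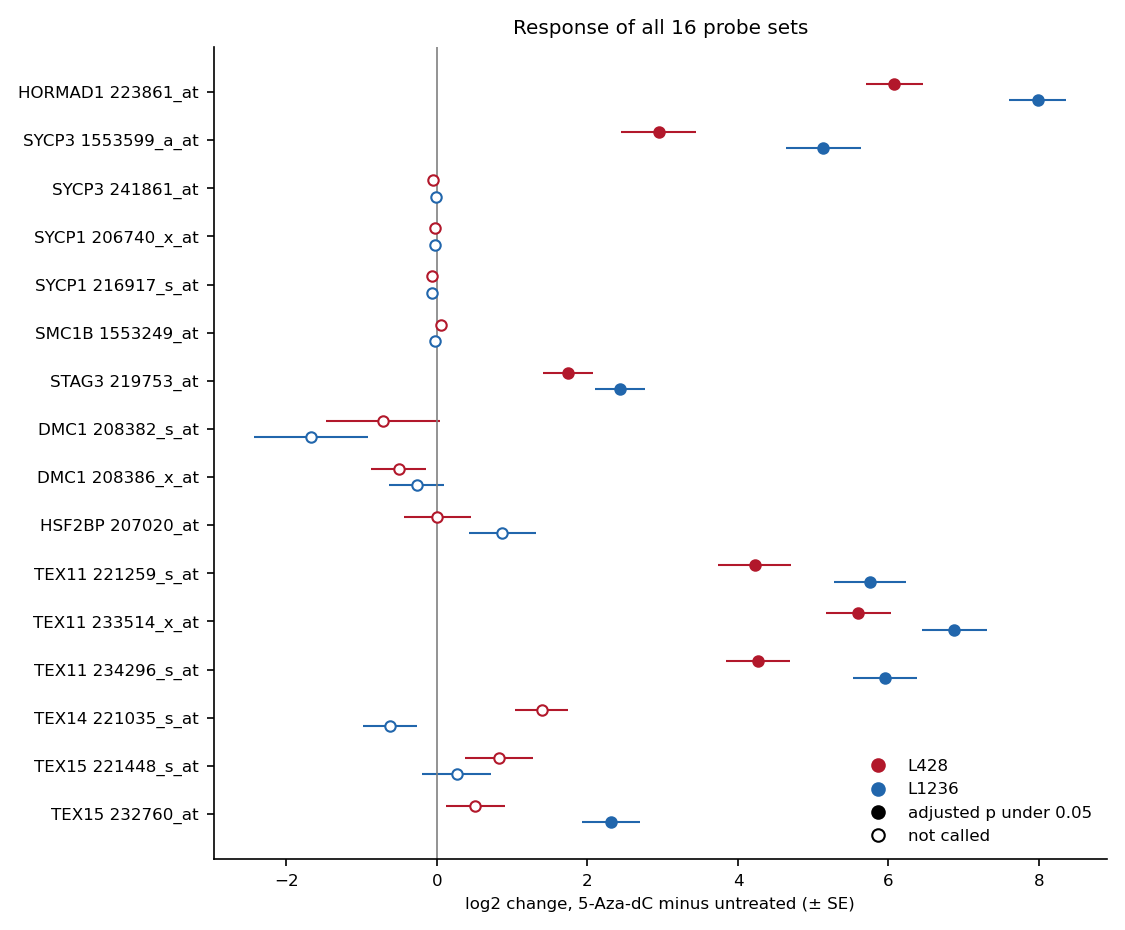
Log2 change, 5-Aza-dC minus untreated, with its SE (horizontal axis) for all 16 probe sets (vertical axis) in L428 (red) and L1236 (blue), filled where the adjusted p was under 0.05. The filled points are HORMAD1, STAG3, the 3 TEX11 probe sets and 1 SYCP3 probe set in both lines, and 1 TEX15 probe set in L1236, and no filled point lies left of 0.

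The promoter windows of SYCP3, TEX11 and STAG3, which rose, and of SYCP1 and SMC1B, which were not called, are shown because CpG sites are where the methylation that 5-Aza-dC removes is found. They run from 250 bases before to 50 bases after the gene start, come from RefSeq (GRCh38.p14) and are written 5′ to 3′ on the strand of the gene, with each CpG in capitals. No methylation was measured on these arrays.
SYCP3, chr12:101739413-101739712, minus strand: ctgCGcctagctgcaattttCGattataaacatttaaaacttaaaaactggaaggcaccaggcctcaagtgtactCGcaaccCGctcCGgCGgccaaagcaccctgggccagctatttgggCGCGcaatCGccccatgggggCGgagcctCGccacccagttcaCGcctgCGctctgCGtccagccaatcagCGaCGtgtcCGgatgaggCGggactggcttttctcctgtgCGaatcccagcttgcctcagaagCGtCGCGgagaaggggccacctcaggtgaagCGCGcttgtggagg
TEX11, chrX:70908662-70908961, minus strand: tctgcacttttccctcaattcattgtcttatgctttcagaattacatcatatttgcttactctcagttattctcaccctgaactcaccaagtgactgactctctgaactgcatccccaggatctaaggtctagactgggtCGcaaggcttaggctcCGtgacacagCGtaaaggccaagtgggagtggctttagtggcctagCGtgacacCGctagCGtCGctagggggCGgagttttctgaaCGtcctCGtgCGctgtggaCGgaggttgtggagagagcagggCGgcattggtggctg
STAG3, chr7:100177668-100177967, plus strand: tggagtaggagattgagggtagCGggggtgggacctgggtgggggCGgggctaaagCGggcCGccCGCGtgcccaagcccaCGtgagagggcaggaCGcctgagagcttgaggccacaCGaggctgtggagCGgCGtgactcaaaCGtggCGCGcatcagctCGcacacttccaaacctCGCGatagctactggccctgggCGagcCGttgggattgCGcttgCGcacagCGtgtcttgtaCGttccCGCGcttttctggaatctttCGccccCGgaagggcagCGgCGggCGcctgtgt
SYCP1, chr1:114854613-114854912, plus strand: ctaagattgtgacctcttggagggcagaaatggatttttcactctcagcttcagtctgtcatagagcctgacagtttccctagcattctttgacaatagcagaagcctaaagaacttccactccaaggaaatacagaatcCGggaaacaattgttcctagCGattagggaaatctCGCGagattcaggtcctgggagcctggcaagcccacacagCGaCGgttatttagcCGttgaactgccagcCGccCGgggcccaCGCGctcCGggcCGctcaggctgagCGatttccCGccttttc
SMC1B, chr22:45413550-45413849, minus strand: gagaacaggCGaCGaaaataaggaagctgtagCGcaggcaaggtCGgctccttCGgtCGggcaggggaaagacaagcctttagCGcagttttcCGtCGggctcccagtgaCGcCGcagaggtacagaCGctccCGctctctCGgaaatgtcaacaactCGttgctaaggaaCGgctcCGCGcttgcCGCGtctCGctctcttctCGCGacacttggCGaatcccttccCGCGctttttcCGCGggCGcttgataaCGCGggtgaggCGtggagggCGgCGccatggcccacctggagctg

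The table held 7 windows for 6 of the 10 genes, and HORMAD1, HSF2BP, TEX14 and TEX15 had no entry. Among genes that rose, the SYCP3 window holds 24 CpGs, the TEX11 window 13 and the STAG3 windows 30 and 20. Among genes not called in either line, the DMC1 window holds 29, the SYCP1 window 15 and the SMC1B window 34. The ranges of the 2 sets overlap, and the median over all 35116 windows of the table was 14, with quartiles of 4 and 28. The observed over expected CpG ratio was 0.88 for SYCP3, 0.627 for TEX11, and 0.932 and 0.676 for the STAG3 windows. It was 0.845 for DMC1, 0.724 for SYCP1 and 1.17 for SMC1B, against a median of 0.579. The letters TTCCCGC, the core of an E2F site, searched on both strands, were found in the windows of SMC1B and SYCP1 and in the printed STAG3 window, and in 6.55% of all windows. The E-box letters CACGTG, which read the same on both strands, were found in both STAG3 windows and in 7.26% of all windows.

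**Figure D3:**
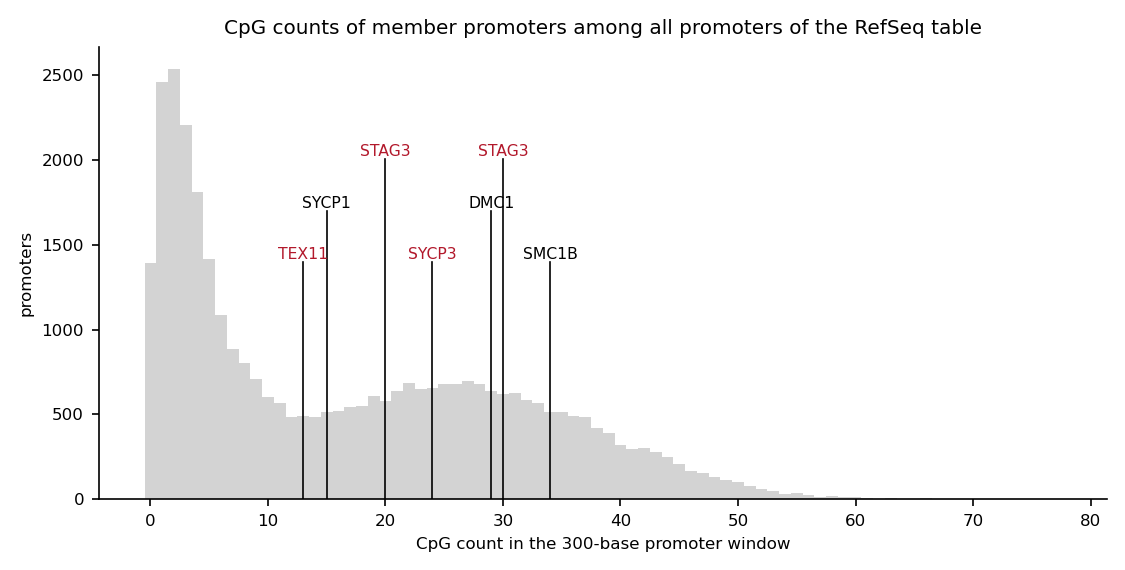
Number of promoter windows (vertical axis) by the CpG count in 300 bases (horizontal axis) over the RefSeq table in grey, with the windows of 6 of the 10 genes marked and genes that rose in red. The red marks lie at 13, 20, 24 and 30 CpGs, and the black marks of SYCP1, DMC1 and SMC1B at 15, 29 and 34, so the 2 sets interleave.

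SYCP1 and SMC1B, 2 further structural genes, gave no signal above the array median on any of the 12 arrays. SYCP1 read 2.53, 2.54 and 2.61 in treated L428 on 216917_s_at, against 2.55, 2.76 and 2.56 in untreated L428. In L1236 it read 2.54, 2.46 and 2.47 after treatment, against 2.54, 2.55 and 2.56 in untreated cells, and its other probe set stayed between 2.29 and 2.39. In L1236 the treated SYCP1 arrays lay below the untreated ones on both probe sets, by 0.06 and 0.03, which is also true of 48.0% of all probe sets in that line. SMC1B, the meiotic SMC subunit of cohesin, ranged from 2.63 to 2.88 over the 12 arrays, with changes of 0.05 ± 0.05 in L428 (95% interval −0.06 to 0.17) and −0.02 ± 0.05 in L1236 (−0.13 to 0.10). A level under the floor of these arrays would not be seen, so absence of RNA cannot be read from these values.

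DMC1, the strand-exchange protein that acts only in meiosis, had signal in untreated cells of both lines and did not rise. On 208382_s_at the log2 signal was 6.97, 5.24 and 5.93 in treated L428, against 7.65, 6.81 and 5.84 in untreated L428, with overlap. In L1236 it was 5.01, 2.89 and 2.60 after 5-Aza-dC, against 5.60, 5.54 and 4.37 in untreated cells, and treated array 1 lay within the untreated range. The change was −0.72 ± 0.76 in L428 (adjusted p = 0.608) and −1.67 ± 0.76 in L1236 (adjusted p = 0.215). Without treated L1236 array 1, the L1236 change was −2.43 with an adjusted p of 0.0456. The second probe set, 208386_x_at, gave changes of −0.51 in L428 and −0.27 ± 0.37 in L1236 (95% interval −1.10 to 0.56), and correlated with the first at r = 0.824 over 12 arrays.

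HSF2BP, which is known in mice to bring BRCA2 to meiotic breaks, was at 2.32 to 2.37 on all 6 L428 arrays. In L1236 it was 4.83, 3.24 and 2.96 after treatment, against 3.39, 2.35 and 2.69 in untreated cells. The L1236 groups overlapped, with array 1 the highest of each, and the change of 0.87 ± 0.44 was not called (adjusted p = 0.25, 95% interval −0.14 to 1.88).

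**Figure D4:**
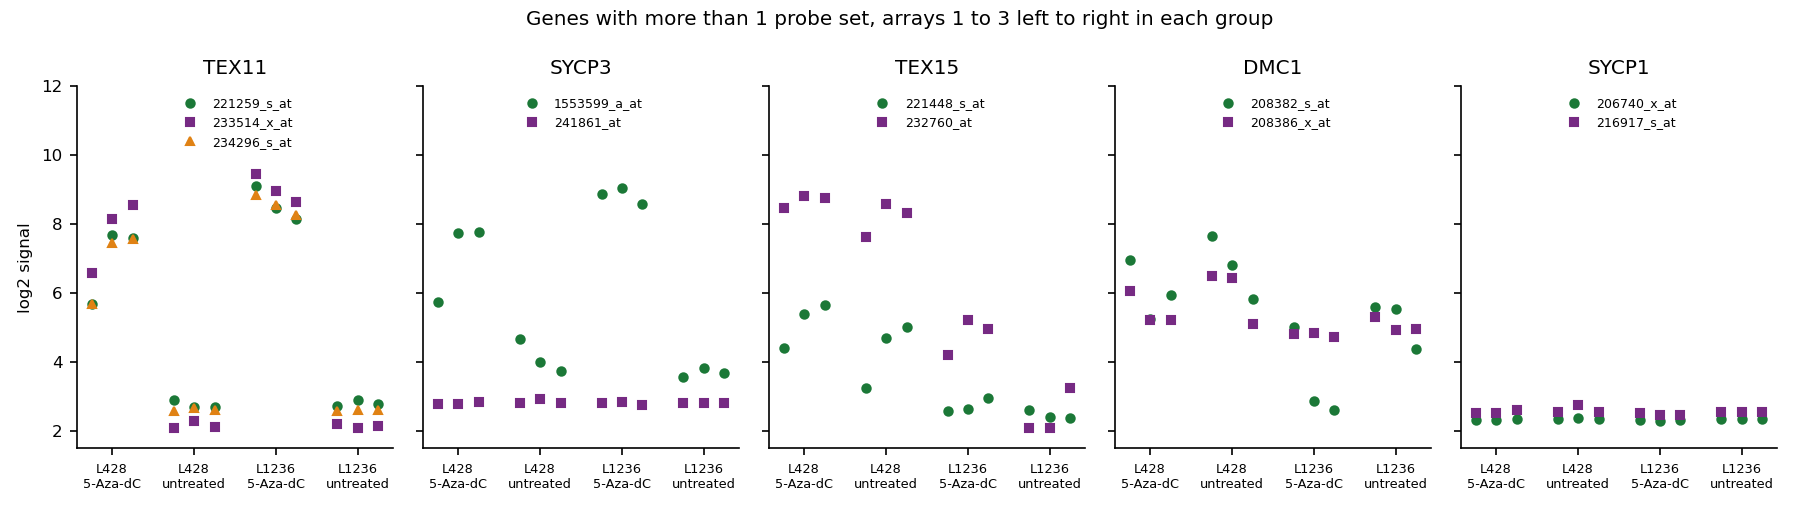
Log2 signal (vertical axis) of each probe set of the 5 genes with more than 1, on arrays 1 to 3 of each group (horizontal axis). The 3 TEX11 probe sets move together, 1 SYCP3 probe set stays flat under 3 while the other is at 5.75 or more on treated arrays, and both SYCP1 probe sets are flat.

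TEX15 and TEX14 separated the 2 lines more than they separated treated from untreated cells. TEX15, required for recombination in mouse spermatocytes, read 4.21, 5.22 and 4.96 on 232760_at in treated L1236, against 2.10, 2.10 and 3.26 in untreated L1236. In L428 it read 8.48, 8.81 and 8.76 after 5-Aza-dC, against 7.61, 8.57 and 8.33 in untreated cells. The L1236 groups did not overlap and the L428 groups did, and the lowest L428 array of either treatment was above the highest L1236 array. TEX15 rose by 2.31 ± 0.39 in L1236 (adjusted p = 0.00779), and its change in L428 was 0.51 ± 0.39 (adjusted p = 0.553, 95% interval −0.38 to 1.40). On the second TEX15 probe set, 221448_s_at, the L1236 change was 0.26 ± 0.45 (adjusted p = 0.703) with all 6 L1236 arrays below the array median, so the rise was seen on 1 of the 2 probe sets.

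TEX14 had changes of opposite sign in the 2 lines. On 221035_s_at it read 6.54, 6.88 and 6.89 in treated L428, against 5.94, 4.60 and 5.58 in untreated L428. In L1236 it read 8.84, 8.05 and 7.80 after treatment, against 9.01, 8.82 and 8.72 in untreated cells. The L428 groups did not overlap, which held for treated above untreated in 7 of the 16 member probe sets and 6.41% of all probe sets, whereas the L1236 groups overlapped. Neither change was called, with 1.39 ± 0.36 in L428 (adjusted p = 0.0817) and −0.62 ± 0.36 in L1236 (adjusted p = 0.288). Without untreated L428 array 1 the L428 change was 1.68 with an adjusted p of 0.0461.

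Untreated L1236 was compared with untreated L428 to see which of these genes differed before treatment. Of the 16 probe sets, 1 was higher in L1236 (11.2% of all probe sets were) and 2 were lower (9.89% of all), next to 21.1% of all probe sets called either way. TEX14 was higher in untreated L1236 than in untreated L428 by 3.48 ± 0.36 (adjusted p = 1.14e-04). Both TEX15 probe sets were lower in untreated L1236, 232760_at by −5.69 ± 0.39 (adjusted p = 9.05e-06) and 221448_s_at by −1.86 ± 0.45 (adjusted p = 0.0172). The call on 221448_s_at was lost without untreated L428 array 2 or 3 or untreated L1236 array 2 or 3 (adjusted p = 0.0535 to 0.0671). HORMAD1, TEX11, SYCP3 and STAG3 were not called between the untreated lines, with differences of −0.06, 0.04, −0.44 and 0.61.

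The size of the response was compared between the lines as L1236 minus L428. No member probe set was called (0 of 16, where 2.57% of all probe sets were), and 5 of 16 had an unadjusted p under 0.05, of which 4 were larger in L1236. The share of all probe sets under that unadjusted threshold was not taken, for this count or for the lists below. Whether the 5, or their direction, are particular to these genes therefore cannot be read from the count. HORMAD1 differed by 1.90 ± 0.54 (adjusted p = 0.129, 95% interval 0.68 to 3.13) and SYCP3 by 2.19 ± 0.70 (adjusted p = 0.188). TEX11 differed by 1.27 to 1.68 over its 3 probe sets (adjusted p = 0.248 to 0.443) and STAG3 by 0.69 ± 0.47 (adjusted p = 0.685). For TEX14 the difference was −2.01 ± 0.50 (adjusted p = 0.0852) and for TEX15 on 232760_at 1.80 ± 0.55 (adjusted p = 0.163). Treated L428 array 1 was the lowest treated L428 array for HORMAD1, SYCP3, STAG3 and all TEX11 probe sets, and without it 3 differences were called, HORMAD1 at 1.37 (adjusted p = 0.00863), SYCP3 at 1.52 (0.0435) and TEX11 234296_s_at at 1.07 (0.0174). Without treated L1236 array 1 or untreated L428 array 1, the TEX14 difference was called at −2.32 (0.0245) and −2.30 (0.0489).

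Other genes of the same machinery were read from lists chosen by function. Of 18 further genes of the synaptonemal complex and axis, 1 rose in L428 and 0 in L1236, and 0 fell in either line, with 3 higher and 1 lower in L428, and 4 higher and 0 lower in L1236, at an unadjusted p under 0.05. The 1 called was REC8, the kleisin of meiotic cohesin, at 5.39 ± 0.71 in treated L428, against 3.26 ± 0.02 in untreated L428 (SD, n = 3 each). Its change of 2.14 ± 0.43 had an adjusted p of 0.037, which became 0.119 with the array number as a block, and the call held in 12 of 22 settings. It was lost without any 1 of the 3 untreated L428 arrays, treated L428 arrays 2 and 3, untreated L1236 arrays 2 and 3, and treated L1236 array 2 (adjusted p = 0.0608 to 0.15). The list's median change was −0.01 in L428 and −0.03 in L1236, next to −0.02 and −0.03 over all genes.

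Of 19 further genes of break formation and recombination, 0 were called in L428, where 2 were higher and 0 lower at an unadjusted p under 0.05. In L1236, 1 fell, and 0 were higher and 5 lower at an unadjusted p under 0.05. It was MLH3, a mismatch-repair protein that resolves crossovers, at 7.60 ± 0.10 in treated L1236, against 8.94 ± 0.11 in untreated L1236, a change of −1.34 ± 0.26 (adjusted p = 0.0138). Without array 3 of treated or untreated L1236 the adjusted p was 0.0549 and 0.0576.

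No gene of the somatic counterparts was called higher in either line, and all of them were above the array median in every group. Of 14 genes of somatic homologous recombination, 4 fell in L1236 and 0 were called in L428, with median changes of −0.53 and −0.04. Over all genes the median changes were −0.03 in L1236 and −0.02 in L428. Of all probe sets, 9.02% were called either way in L1236 and 3.02% in L428. The share of all genes called lower is not given here, for these lists or the others. At an unadjusted p under 0.05, 1 was higher and 9 lower in L1236, and 1 higher and 1 lower in L428. The 3 with the largest falls in L1236 were RAD54B at −1.09 ± 0.25 (adjusted p = 0.0294), RAD51C at −1.02 ± 0.23 (0.0264) and RAD51B at −0.95 ± 0.17 (0.0107). Leaving out untreated L1236 array 3 brought that count to 1, and RAD54B and RAD51C were each not called without any 1 of arrays 2 and 3 of either L1236 group (adjusted p = 0.0932 to 0.106). Of 13 somatic cohesin genes, 2 fell in L1236, STAG1 by 0.65 and SMC1A by 0.54 on the log2 scale, and PDS5B fell by 0.49 in L428. At an unadjusted p under 0.05, 1 cohesin gene was higher and 4 lower in L1236, and 1 higher and 5 lower in L428. SMC1A is the mitotic relative of SMC1B and STAG1 that of STAG3. SMC1A was not called without any 1 of arrays 2 and 3 of either L1236 group (adjusted p = 0.053 to 0.0583), and STAG1 without any 1 of the 6 L1236 arrays or treated L428 arrays 2 and 3 (0.0542 to 0.124).

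Of 10 measured genes listed for entry into meiosis and its regulation (15 listed), 2 rose in L428 (2.84% of all genes) and 4 in L1236 (7.41%). STRA8, MEIOSIN, YTHDC2, HSF2 and RBM44 were listed and not measured, as no probe set was annotated to that symbol alone. Among the 4 in L1236, SOHLH1 changed by only 0.19 ± 0.04 (adjusted p = 0.0208). It stayed below the array median, at 2.55 in treated L1236 and 2.36 in untreated L1236. DAZL, the germ cell RNA-binding protein, averaged 10.64 ± 1.73 in treated L428 and 2.89 ± 0.06 in untreated L428 (SD, n = 3 each), with an adjusted p of 6.8e-04. In L1236 DAZL averaged 12.41 ± 0.07 after treatment and 2.90 ± 0.03 without (adjusted p = 6.89e-05). MEIOC, which in mice keeps germ cells in the meiotic programme, averaged 8.65 ± 0.41 in treated L1236 and 2.78 ± 0.01 in untreated L1236, a change of 5.88 ± 0.48 (adjusted p = 1.63e-04). In L428 the MEIOC change was 1.54 ± 0.48 (adjusted p = 0.144), or 2.20 with an adjusted p of 3.23e-04 without treated L428 array 1. The 2 MEIOC responses differed by 4.34 ± 0.67 (adjusted p = 0.0139, or 0.0648 with the array number as a block). TAF7L, a germ cell form of a general transcription factor subunit, rose by 7.78 ± 0.93 in L1236 (adjusted p = 0.00146), and its L428 change of 4.10 ± 0.93 had an adjusted p of 0.0549, or 9.06e-06 without treated L428 array 1, where the change was 5.44. DMRT1, a regulator of the germ cell decision between mitosis and meiosis, rose by 2.80 ± 0.39 in L428 (adjusted p = 0.00729), and its L1236 change was 0.58 ± 0.39 (adjusted p = 0.344).

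Genes of later sperm development, such as those of protamines and transition proteins, stayed at the floor, with 0 of 12 above the array median on all 3 arrays of any group. Of these 12, 0 were called in either line, and 1 in L428 and 0 in L1236 had an unadjusted p under 0.05. Of 8 Sertoli and Leydig cell genes, 1 rose in each line, STAR by 1.12 ± 0.19 in L428 (adjusted p = 0.0174, or 0.0533 with the array number as a block, and 0.0541 and 0.0777 without treated array 2 and 3) and SOX9 by 3.0 ± 0.47 in L1236 (0.00538). Of 18 genes of the complexes that repress germ line genes, 1 fell in each line and 0 rose at an adjusted p under 0.05. At an unadjusted p under 0.05, 3 were higher and 5 lower in L428, and 6 higher and 5 lower in L1236. DNMT3A changed by 1.75 ± 0.47 in L1236 (adjusted p = 0.0505). DNMT3B changed by 0.62 in L428 (0.129) and by 0.60 in L1236 (0.0809). RING1 changed by −0.31 ± 0.06 in L428 (adjusted p = 0.0311, or 0.0714 with the array number as a block). DNMT1, the maintenance methyltransferase that 5-Aza-dC traps, averaged 12.12 ± 0.16 in treated L1236 and 12.69 ± 0.10 in untreated L1236, a change of −0.57 ± 0.14 (adjusted p = 0.034). RING1 was not called without any 1 of 9 arrays (adjusted p = 0.0507 to 0.131), and DNMT1 without any 1 of the 3 untreated L1236 arrays, treated L1236 arrays 2 and 3 and untreated L428 array 3 (0.0508 to 0.128).

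**Figure D5:**
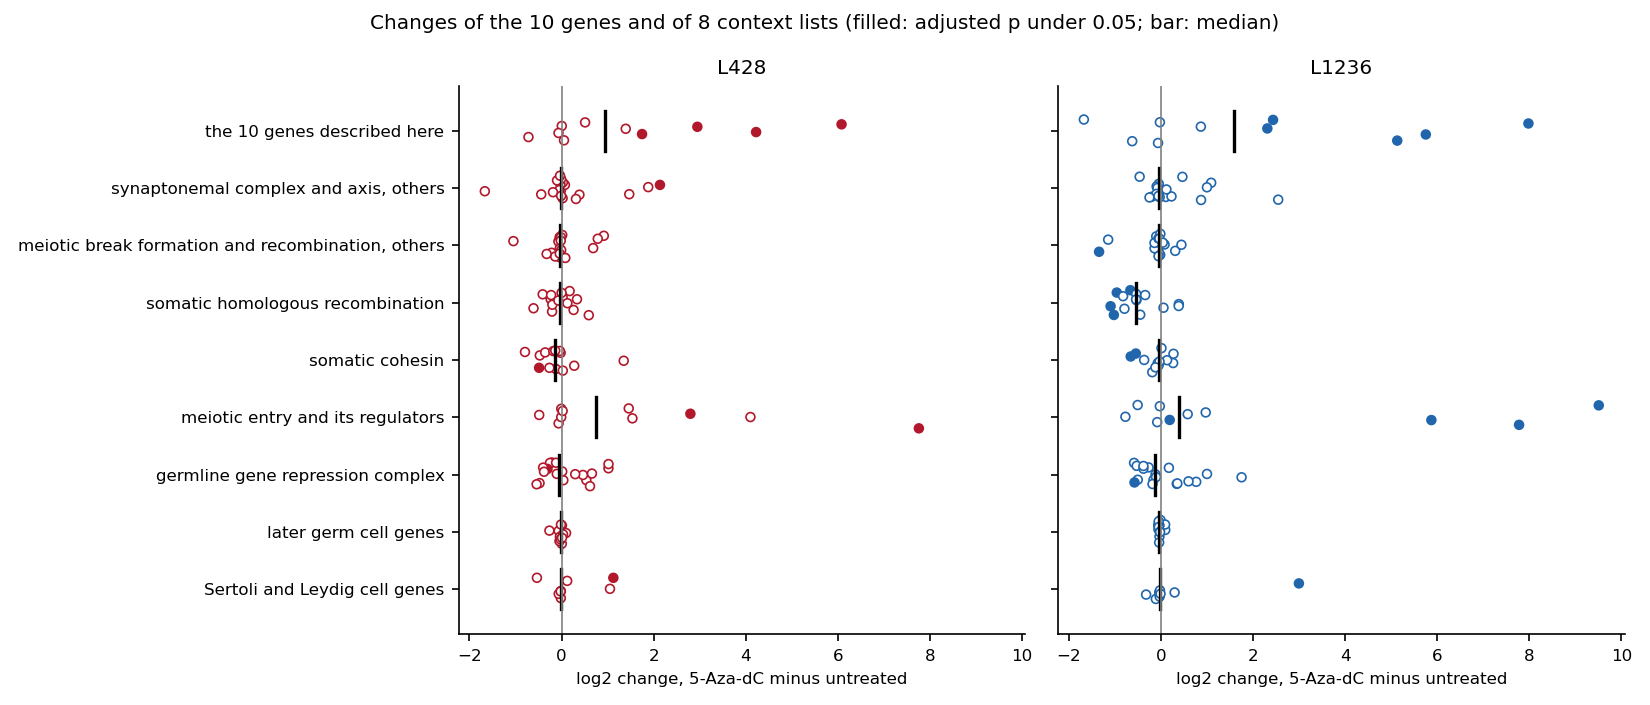
Log2 change, 5-Aza-dC minus untreated (horizontal axis), of the 10 genes and of each gene in 8 lists (vertical axis) in L428 and L1236, 1 point per gene, filled where the adjusted p was under 0.05, with a bar at the median of each list. Filled points above a change of 4 occur among the 10 genes and the meiotic entry genes alone, and the later germ cell genes cluster at 0.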

How the data were processed

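The authors deposited a table of log2 signals with a value for each probe set on each array. Robust multichip averaging (RMA) made them, as both the processing notes and the design text state, and its version is not given in the sources used here. A whole-transcript array is named in the design text, but the probe set names fit a 3' expression array and were used as such. Scanner output was not used here, so which signals lie above background is unknown. Names came from the platform annotation: 41097 probe sets had 1 symbol, 1801 several and 11777 none, and 41043 were updated by Entrez ID through the RefSeq table. Groups came from the sample descriptions. Group means were fitted with limma 3.58.1 in R 4.3.3 on all 54613 probe sets that are not controls and all 12 arrays, and the procedure was tested on simulated data. The precision is limited by 3 arrays per group. A gene is represented by its probe set of highest mean over the 12 arrays. All members were named, up to 3 called and separated genes per list and line, the 5 genes most like HORMAD1, and neighbours in head-to-head position within 2000 bases. Members and lists were chosen with earlier results of these data known. In L428, arrays with the same title number deviated together (r = 0.26, 0.154 and 0.167), so the number was taken as a pairing there by the rule that every same-number r exceed 0.1, although arrays 2 and 3 correlated as well across numbers (0.168 and 0.161), and results whose call the block changes carry the blocked value. In L1236 the values were 0.069, 0.012 and 0.103, and the numbers were not taken as pairs. Alternatives changed the normalization, filter, variance prior, arrays in the fit, weights, block, call rule and promoter window, and left out each array in turn.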

Additional observations from a re-analysis of the deposited data

How the results depend on the processing

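No called change of a member probe set turned its sign in any alternative. The L428 count of 6 member probe sets became 2 when only the 6 L428 arrays were fitted. The lost calls were those of STAG3 (adjusted p = 0.123), SYCP3 (0.207) and 2 TEX11 probe sets (0.0942 and 0.0786). TEX15 in L1236 was lost when only the 6 L1236 arrays were fitted (0.0607). Such a fit has fewer degrees of freedom and takes its spread from 1 line. The SDs of SYCP3 1553599_a_at were 1.16 treated and 0.48 untreated in L428, against 0.23 and 0.12 in L1236. Those of STAG3 were 0.49 and 0.24 in L428, against 0.38 and 0.54 in L1236. Which of these moved the calls was not tested. The count of 0 differences between the lines became 1 without the probe sets of lower mean signal than the median, 3 with array weights, 4 without all arrays numbered 1, and 0 to 3 when 1 array was left out. The L1236 count ranged from 5 with 1 probe set per gene to 10 with array weights. With array weights 3 members were called lower in L1236. They were DMC1 208382_s_at (−2.23, adjusted p = 0.0162), TEX14 (−0.87, 0.00721) and SYCP1 216917_s_at (−0.08, 0.0478). The untreated count ranged from 2 to 4. With the replicate block, 4 member probe sets were called in L428, 7 in L1236, 0 for the difference and 3 between untreated lines, and in L1236, where numbers are not taken as pairs, it changed no member call. Counts over all probe sets moved far more, from 244 with only the arrays compared to 10934 with array weights in L428 (1647 as reported), from 2502 without treated L1236 array 2 to 23942 with array weights in L1236 (4927), from 668 with the replicate block to 8098 with array weights for the difference (1403), and from 5699 with 1 probe set per gene to 16847 with array weights between untreated lines (11508). The share of higher calls in L1236 was 50.8% as reported, 24.6% after median centring and 27.4% with array weights, and in L428 it was 60.2% as reported and 41.9% with array weights. List counts moved too, over all alternatives, in L428 and then L1236: other axis genes 0 to 6 and 0 to 9, break and recombination genes 0 to 6 and 0 to 7, somatic recombination 0 to 4 and 1 to 12, somatic cohesin 0 to 7 and 0 to 7, meiotic entry 0 to 5 and 3 to 7, repression complex 0 to 10 and 0 to 12, later germ cell genes 0 to 2 and 0 to 4, Sertoli and Leydig genes 0 to 2 and 1 to 2. Before the gene start alone, the promoter windows held 19 CpGs for SYCP3, 9 for TEX11, and 24 and 14 for STAG3. They held 23 for DMC1, 8 for SYCP1 and 29 for SMC1B, against a median of 11. The cause of these shifts was not tested except where stated. Signals near 2 to 3 have no known relation to background.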

Other observations

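The 5 genes whose signals over the 12 arrays were most like those of HORMAD1 were DAZL (r = 0.997), CTAG2 (0.996), MAGEA8 (0.995), GPAT2 (0.995) and TKTL1 (0.994). The correlations describe 12 arrays in 4 groups, which share the split between treated and untreated cells. CTAG2 and MAGEA8 belong to families of near-identical X-linked genes, so their probe sets may read relatives. TKTL1, a relative of the enzyme transketolase, averaged 11.38 in treated L428 and 2.63 in untreated L428, and 12.76 in treated L1236 and 2.72 in untreated L1236. GPAT2, a germ cell acyltransferase of the mitochondrial membrane, averaged 7.92 in treated L428 and 2.89 in untreated L428, and 8.99 in treated L1236 and 2.77 in untreated L1236.

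SMC1B shares its promoter region, head to head, with RIBC2, a gene for a protein of ciliary microtubules. SMC1B stayed below the array median on all arrays, while RIBC2 read 4.08, 6.72 and 7.27 in treated L428, against 4.32, 3.51 and 3.92 in untreated L428. RIBC2 was high on treated L428 arrays 2 and 3 and within the untreated range on array 1, and its change of 2.11 ± 0.69 was not called (adjusted p = 0.165). Without treated L428 array 1 the change was 3.08 with an adjusted p of 2.23e-04. In L1236 RIBC2 averaged 4.16 ± 0.18 after treatment and 4.03 ± 0.17 without (SD, n = 3 each). GPC2, the head-to-head neighbour of STAG3, changed by 0.01 ± 0.19 in L428 and −0.47 ± 0.19 in L1236, and neither was called (adjusted p = 0.979 and 0.17).

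MAJIN, which in mice fixes meiotic telomeres to the nuclear membrane, was named after its values were seen. It averaged 4.75 ± 0.60 in treated L1236 and 2.20 ± 0.00 in untreated L1236, with no overlap and an adjusted p of 0.0626, and 4.08 ± 1.74 in treated L428 and 2.20 ± 0.01 in untreated L428 (adjusted p = 0.231).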
